A study of Mus musculus with 6 samples.

Results

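Respiratory complex I takes electrons from NADH at the inner mitochondrial membrane, hands them to ubiquinone and pumps protons, and it is the largest entry point of the respiratory chain. Its core subunits carry the flavin, the iron-sulfur clusters and the quinone site, or sit in the membrane as proteins encoded by mitochondrial DNA. Accessory subunits surround that core, and assembly factors help to build the enzyme without staying in it. Activated T cells are known to raise both glycolysis and respiration, and complex I also feeds mitochondrial reactive oxygen signals in these cells.

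The genes described here are the rows of the deposited count table whose symbol starts with Nduf, leaving out symbols that end in -ps. The rule took 45 of 23453 gene rows. They comprise 7 nuclear-encoded core subunits, 29 accessory subunits, 7 assembly factors, and Ndufa4 and Ndufa4l2. Ndufa4 was first assigned to complex I and is now counted with complex IV, and Ndufa4l2 is its hypoxia-responsive relative. Mitochondrially encoded subunits were not analysed here.

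The cultures were splenocytes of OT1 mice on the C57BL/6 background, and OT1 is a transgenic CD8 T cell receptor that recognizes OVA. All 6 were given OVA peptide over 48 h, followed for 8 h by either FCM, in the 3 libraries titled vehicle, or TCM, in the other 3. FCM and TCM are not spelled out in the labels. Cytotoxic T lymphocytes are given as the cell type with no separation step described, and whether replicates came from different cultures or mice is not labelled. The p-values therefore reflect library-to-library spread alone, which may be technical.

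The 2 deposited tables hold the same libraries but title the groups oppositely: 6 of 6 columns of the normalized table are constant multiples of the count column with the other title and the same replicate number. All directions below follow the count table, written as "count-table TCM" against "count-table vehicle", and each of them turns around under the other header. Libraries held 17166687 to 25789381 counts, so that 1 count was worth 0.0388 to 0.0583 CPM before scaling, CPM being counts adjusted to a common library size. Levels are CPM scaled by TMM, edgeR's correction for library composition. The replicate 1 libraries of both groups stood apart: same-group pairs with replicate 1 differed by a chi-square per gene of 62.0 to 110, against 5.08 and 7.48 for replicates 2 and 3. The share of counts from the ribosomal RNA gene Rn45s was 11.2% and 11.6% in the replicate 1 libraries and 16.0% to 18.9% in the other 4, and its part in the results was not tested.

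All 10 T cell markers were measured, with Cd3e at 125 ± 16.8 CPM in count-table vehicle and 137 ± 9.53 CPM in count-table TCM (SD, n = 3). Other cell types were present too. The summed level of 12 neutrophil markers was 8179 to 12718 CPM in count-table vehicle and 1150 to 2197 CPM in count-table TCM, and 11 of the 12 fell. That of 7 B cell markers was 1769 to 2128 CPM against 969 to 1154 CPM, where 5 fell and Ms4a1 and Blk did not pass. That of 10 macrophage and monocyte markers was 659 to 722 CPM against 176 to 207 CPM, of which Lyz2 gave a mean of 414 against 32.7 CPM. Of its 9 tested markers 7 fell, Cd14 rose 1.63-fold (adjusted p = 0.00124) and Cd68 did not pass. NK cell, dendritic cell and erythroid lists reached at most 33.1 CPM in any library, with Klra4, Cd209a and Hba-a2 at 0. Of their tested markers 2 of 4, 3 of 5 and 4 of 4 fell, and 0 rose. T cell markers summed to 1076 to 1285 CPM against 1704 to 2018 CPM, of which Thy1 gave a mean of 336 against 923 CPM. Of these 10 markers Thy1 and Cd3d rose, 7 did not pass, and Cd8a, a chain of the CD8 coreceptor, fell 1.59-fold (adjusted p = 0.00115). In such bulk RNA, fewer cells of a type and less RNA per cell cannot be told apart, and the part of these cell types in the results below was not tested.

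Promoter sequence was examined because nuclear genes of the respiratory chain are known targets of NRF1 and of the ETS factor GABP. RefSeq promoters on GRCm38.p6 (250 bases before the start and 50 after it) were found for 39 of the 45 genes. The stretches below, none of which overlaps an exon in GENCODE M21, show the gene with the highest change (Ndufc2) and that with the lowest (Ndufs8), and 2 assembly factor genes with a motif before the start. Ndufc2 held none of the 5 motifs searched, and the 1 match of Ndufs8, an ETS motif on the opposite strand, lies 15 bases after the start and outside the stretch shown. Capitals mark the NRF1 motif searched, a palindrome, in Ndufaf4 and the ETS motif CCGGAAG in Ndufaf1.
Ndufc2, chr7:97399923-97400002, plus strand: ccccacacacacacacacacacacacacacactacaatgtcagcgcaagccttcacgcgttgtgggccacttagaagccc
Ndufs8, chr19:3912775-3912854, minus strand: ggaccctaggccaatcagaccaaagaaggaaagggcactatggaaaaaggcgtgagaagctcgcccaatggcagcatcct
Ndufaf4, chr4:24897910-24897989, plus strand: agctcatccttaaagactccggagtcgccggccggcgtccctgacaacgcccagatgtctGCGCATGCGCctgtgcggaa
Ndufaf1, chr2:119662836-119662915, minus strand: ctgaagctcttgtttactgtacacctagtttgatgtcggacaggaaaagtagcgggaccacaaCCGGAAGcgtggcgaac
Motifs were searched on both strands over the 300 bases, and no promoter of these genes held 2 different motifs. NRF1's motif occurred in 3 of 39 promoters (7.69%; 2.44% of promoters of tested genes), the ETS motif in 5 (12.8%; 20.3%) and the YY1 motif AAGATGGCG in 5 (12.8%; 3.63%). The E-box CACGTG occurred in 2 (5.13%; 11.9%), and the estrogen-related receptor motif TCAAGGTCA in 0 (0.335% of promoters of tested genes). Among genes that rose, 1 of 27 promoters held the NRF1 motif and 4 of 27 the YY1 motif, against 2 of 11 and 1 of 11 among tested genes that did not pass. A match is a description of these letters and not a binding site.

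Transcripts of complex I genes were mostly higher in count-table TCM. Of the 45 genes, 43 had enough counts to be tested, and 29 of them rose, 0 fell and 14 did not pass an adjusted p of 0.05 (edgeR's quasi-likelihood test, Benjamini-Hochberg over 12423 genes). Over all genes tested, 28.8% rose and 30.0% fell, 58.8% in either direction. With library totals alone as scaling, 2364 of all genes were called higher and 3965 lower in place of 3584 and 3726, and 25 complex I genes higher. The median log2 change was 0.91 over the 43 genes and -0.02 over all genes. At an unadjusted p under 0.05, 31 of the 43 were higher and 1 was lower, against 3880 and 4031 of all genes. The groups did not overlap in 27 genes with TCM higher and in 2 with TCM lower, where all genes gave 30.6% and 33.6%, 64.2% in either direction.

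The size of these changes moved with the treatment of transcript length, and the number of calls also with that of replicate 1. Complex I transcripts are short, with a median union exon length of 1092 bases against 3213 over tested genes. Among all genes the median log2 change ran from 0.46 in the fifth with the shortest transcripts, which holds 34 of the 43 genes, to -0.34 in the fifth with the longest. In the alternative that removes this trend from each library, 23 of the 43 were called higher and 4 lower (Ndufs8, Ndufs7, Ndufb7 and Ndufb9), and the median was 0.33. With the replicate number as a block, 36 were called higher and 2 lower (Ndufs8 and Ndufs1), with a median of 0.89. Without the replicate 1 libraries 36 were higher and 3 lower, and the median was 0.98. The third of those lower is Ndufa4l2, which enters the test there through its vehicle libraries alone. Calls over all genes grew as well, from 3584 higher and 3726 lower to 4509 and 4594 with the block and to 4566 and 4771 without replicate 1. Across these 43 genes the log2 change and the length had a Spearman correlation of -0.30, and -0.28 over 11681 genes with a length; genes share the libraries, so this is a description.

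**Figure D1:**
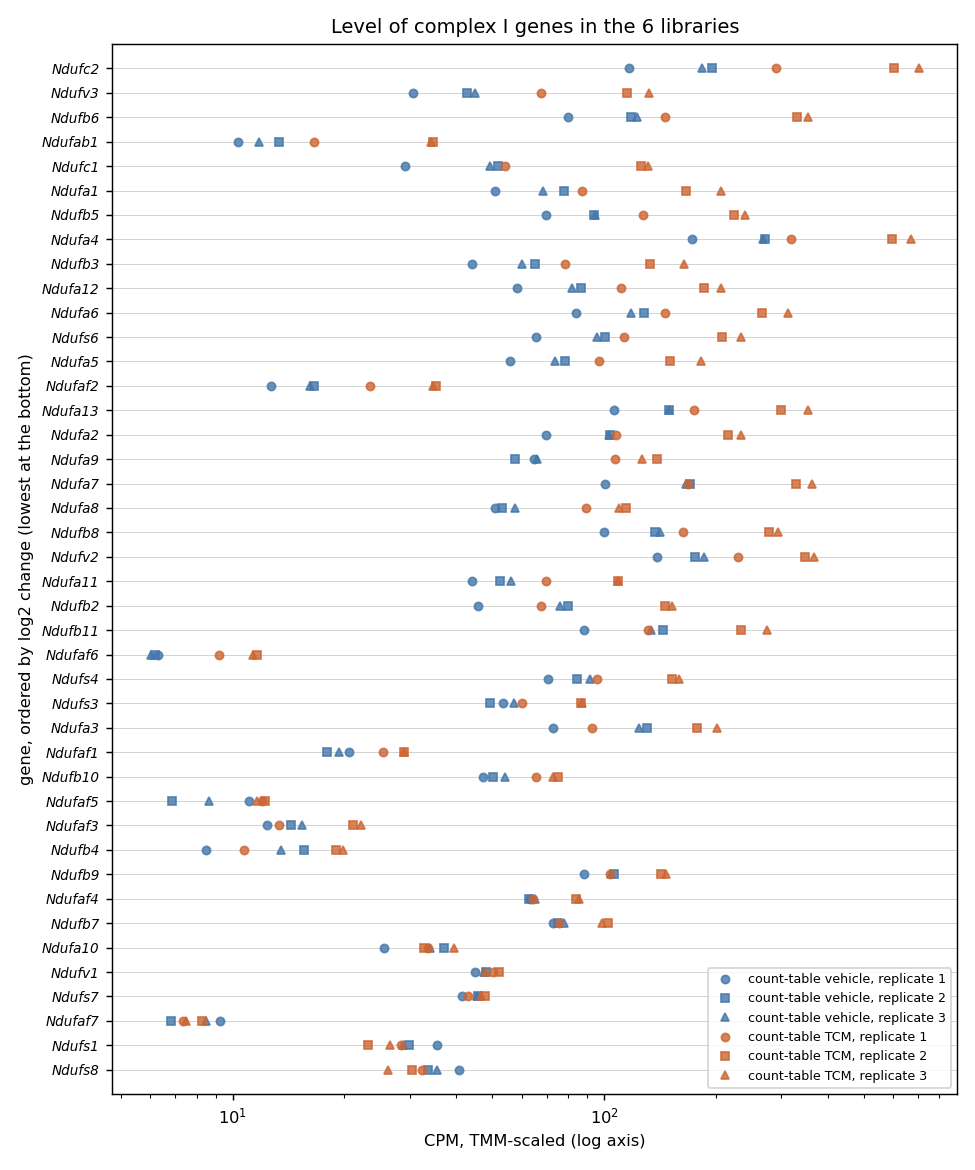
CPM (log axis) of 42 of the 43 tested genes in each library, ordered by log2 change; blue is count-table vehicle, orange count-table TCM, and the marker gives the replicate. From Ndufaf6 upwards the orange symbols lie mostly to the right of the blue ones, and the circles (replicate 1) lie to the left within most genes.

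Replicate 1 was the lowest library of its group in 34 of the 43 genes in count-table vehicle and in 37 in count-table TCM. Its median log2 distance from replicates 2 and 3 was -0.38 and -0.70 over these genes, and 0.01 and 0.04 over all genes. In the fifth of all genes with the shortest transcripts that distance was -0.23 and -0.41. Within same-numbered pairs the median log2 ratio of count-table TCM over vehicle was 0.62 for replicate 1, 0.94 for replicate 2 and 0.96 for replicate 3. The ratio was above 0 in all 3 pairs for 38 of 43 genes (40.5% of all genes), and below 0 in all 3 for Ndufs8 and Ndufs1.

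The 7 core subunits, which hold the redox centres of the matrix arm, divided into 2 that rose and 5 that did not pass, a share of rises near the 28.8% of all genes. Ndufv2, an iron-sulfur protein of the NADH-oxidizing tip, had 138, 175 and 185 CPM in count-table vehicle replicates 1 to 3 and 229, 348 and 368 CPM in count-table TCM. The groups did not overlap, and Ndufv2 rose 1.89-fold (log2 change 0.92 ± 0.21, SE; adjusted p = 0.00473). Ndufs3, a core protein without a cofactor, had 53.6, 49.2 and 57.3 CPM against 60.1, 86.8 and 87.3 CPM. It rose 1.46-fold (adjusted p = 0.0178), with replicate 1 of count-table TCM close to the vehicle libraries. Its rise was lost once transcript length was corrected for (log2 change -0.02, adjusted p = 0.917), with library totals alone as scaling (0.31, adjusted p = 0.145) and without vehicle replicate 2 (0.50, adjusted p = 0.067), TCM replicate 2 (0.47, 0.0746) or TCM replicate 3 (0.47, 0.0586).

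The core genes that did not pass stayed near or below their vehicle level. Ndufs8, which carries iron-sulfur clusters on the way to the quinone, had 40.8, 33.5 and 35.5 CPM in count-table vehicle and 32.4, 30.4 and 26.2 CPM in count-table TCM. All 3 TCM libraries lay below the vehicle libraries, with a log2 change of -0.30 ± 0.13 that did not pass (adjusted p = 0.0722). Ndufs1, the large iron-sulfur subunit next to the flavin site, had 35.4, 29.9 and 28.8 CPM against 28.4, 23.2 and 26.5 CPM, again without overlap (log2 change -0.27 ± 0.13, adjusted p = 0.105). With the replicate block Ndufs8 passed at -0.30 (adjusted p = 0.00637) and Ndufs1 at -0.27 (adjusted p = 0.0178). Ndufs8 also passed with the length trend removed, at -0.71 (adjusted p = 0.00895), and without TCM replicate 1, at -0.37 (adjusted p = 0.034).

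Ndufv1 binds the flavin and oxidizes NADH, and Ndufs7 lines the quinone site. Ndufv1 had 45.0, 48.1 and 47.6 CPM against 50.2, 52.1 and 47.7 CPM, with a log2 change of 0.09 ± 0.11 (adjusted p = 0.479). Ndufs7 had 41.5, 45.8 and 45.6 CPM against 43.0, 47.7 and 46.7 CPM (0.05 ± 0.11, adjusted p = 0.726). Levels of the groups overlapped in both genes. The direction of both turned negative with library totals alone or with the length trend removed, and Ndufs7 then passed as lower in the latter (-0.51, adjusted p = 0.00749).

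**Figure D2:**
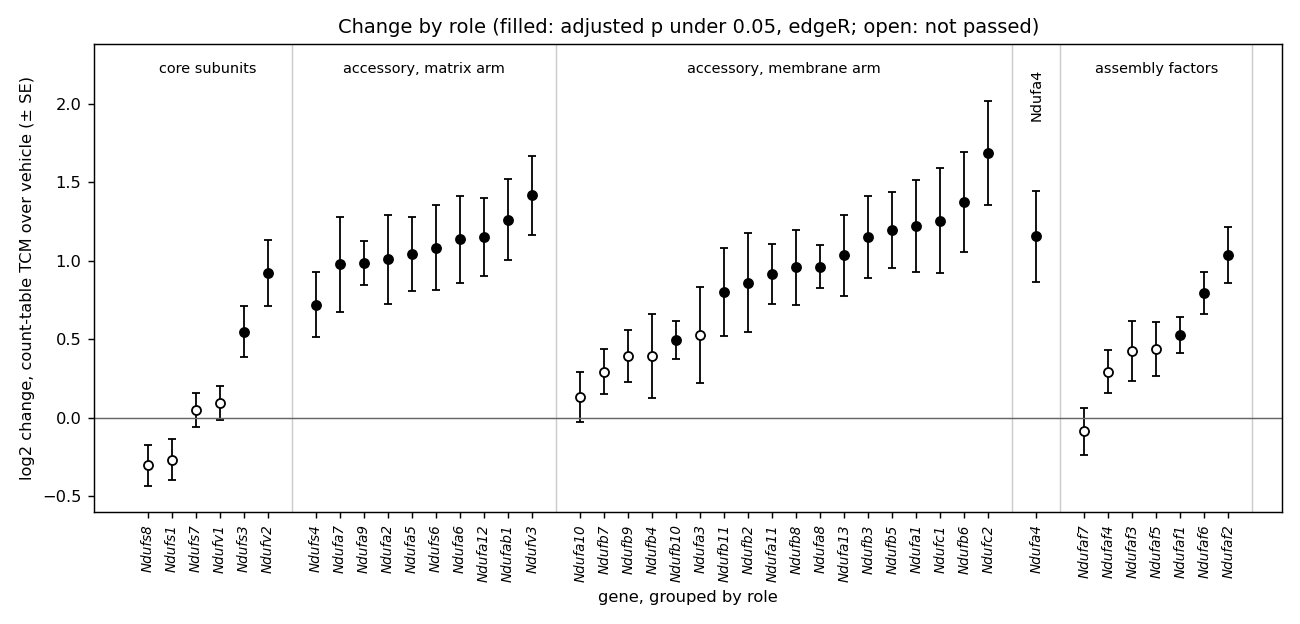
Log2 change of the same 42 genes (vertical axis, count-table TCM over vehicle, with its SE), grouped by role; filled points passed an adjusted p of 0.05. Core subunits span -0.30 to 0.92, while all 10 accessory subunits of the matrix arm lie between 0.72 and 1.42.

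Accessory subunits of the matrix arm rose together: 10 of 10 passed, with log2 changes from 0.72 to 1.42 and a median of 1.06. The share of rises was 28.8% over all genes and 45.1% in the fifth with the shortest transcripts. Ndufv3, which sits on the NADH-oxidizing tip, had 30.5, 42.6 and 44.8 CPM in count-table vehicle and 67.5, 115 and 132 CPM in count-table TCM. It rose 2.67-fold without overlap (log2 change 1.42 ± 0.25, adjusted p = 0.00134). Ndufab1 encodes the mitochondrial acyl carrier protein, which also serves fatty acid and lipoic acid synthesis. It had 10.3, 13.3 and 11.8 CPM against 16.5, 34.6 and 34.1 CPM, a 2.40-fold rise (1.26 ± 0.26, adjusted p = 0.00292). Once the length trend was taken out, 8 of the 10 were called and the median was 0.43; Ndufa7 (0.17, adjusted p = 0.282) and Ndufa2 (0.20, adjusted p = 0.176) were not.

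The membrane arm holds the proton pumps, and 13 of its 18 tested accessory subunits rose (median log2 change 0.94). Beside this, 28.8% of all genes rose, and 45.1% of those in the fifth with the shortest transcripts. With the length trend removed 11 of the 18 were higher and 2 lower, with a median of 0.41. Ndufc2 had the largest change of the 43 genes, with 117, 196 and 184 CPM in count-table vehicle and 290, 602 and 705 CPM in count-table TCM. The lowest TCM library lay above the highest vehicle library, and the rise was 3.22-fold (log2 change 1.69 ± 0.33, adjusted p = 0.00222). Ndufb6 had 107 ± 23.5 CPM in count-table vehicle (SD, n = 3) against 146, 330 and 354 CPM (2.59-fold, adjusted p = 0.00552). For Ndufc1 the values were 29.2, 51.9 and 49.2 CPM against 54.1, 126 and 131 CPM (2.39-fold, adjusted p = 0.0108). Here replicate 1 of count-table TCM lay just above the highest vehicle library. Ndufa1, encoded on the X chromosome and needed for membrane arm assembly, had 50.7, 78.1 and 68.4 CPM against 87.2, 166 and 206 CPM (2.33-fold, adjusted p = 0.0067). Ndufb5 had 69.7, 93.7 and 94.8 CPM against 128, 223 and 240 CPM (2.29-fold, adjusted p = 0.00274). The groups did not overlap in any of these 5 genes.

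At the lower end of the membrane arm, Ndufb10 passed and 5 genes did not. Ndufb10, which faces the intermembrane space, had 47.1, 50.3 and 54.0 CPM against 65.4, 75.4 and 72.7 CPM and rose 1.41-fold (log2 change 0.50 ± 0.12, adjusted p = 0.00658). That call was lost with the length trend removed (-0.17, adjusted p = 0.36) and with library totals alone (0.28, adjusted p = 0.167). Ndufa10, a kinase-like subunit, had 25.5, 37.0 and 34.0 CPM against 33.6, 32.7 and 39.4 CPM (0.13 ± 0.16, adjusted p = 0.489). Ndufb7, another protein of the intermembrane space side, had 72.9, 75.3 and 78.0 CPM against 75.7, 102 and 99.0 CPM (0.29 ± 0.14, adjusted p = 0.107). Values overlapped in both genes, and in Ndufb7 only through replicate 1 of count-table TCM.

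Ndufb9, a subunit of the LYR family that binds the acyl carrier protein, had 88.3, 106 and 105 CPM against 104, 142 and 146 CPM (0.39 ± 0.17, adjusted p = 0.069). Ndufb4 had 8.49, 15.5 and 13.5 CPM against 10.7, 18.9 and 19.8 CPM (0.39 ± 0.27, adjusted p = 0.233). Ndufa3 had 72.7, 131 and 125 CPM against 92.9, 178 and 202 CPM (0.53 ± 0.31, adjusted p = 0.163). In each of the 3, replicate 1 was the lowest library of both groups and the groups overlapped through it. With the replicate block Ndufb7 (0.28, adjusted p = 0.0121), Ndufb9 (0.38, 0.000825), Ndufb4 (0.40, 0.00132) and Ndufa3 (0.50, 9.72e-06) passed as higher. With the length trend removed Ndufb7 and Ndufb9 passed as lower instead (-0.45, adjusted p = 0.0238, and -0.32, adjusted p = 0.038). The direction of these 2 genes thus differed between the 2 treatments of length. Ndufb9 also passed as higher with DESeq2 (0.42, adjusted p = 0.045), and all 4 did without TCM replicate 1 (Ndufb7 0.42, adjusted p = 0.00837; Ndufb9 0.54, 0.00534; Ndufb4 0.63, 0.0305; Ndufa3 0.80, 0.0127).

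The other 15 accessory subunits all rose, with log2 changes of 0.72 to 1.15, a median of 0.99 and adjusted p-values of 0.0004 to 0.0409. In 12 of the 15 the groups did not overlap, with TCM higher. Over all genes 28.8% rose, and 30.6% did not overlap with TCM higher. These 15 remained once Ndufab1 and the accessory subunits with the highest and lowest log2 changes had been described above. The tested ones that did not pass were all among the lowest, so that choice by itself left only genes that rose. It also narrowed the range, and these values are a description and not a separate result. The 15 were Ndufa2, Ndufa5, Ndufa6, Ndufa7, Ndufa8, Ndufa9, Ndufa11, Ndufa12, Ndufa13, Ndufb2, Ndufb3, Ndufb8, Ndufb11, Ndufs4 and Ndufs6. Ndufb2 was the called gene nearest to the threshold (0.86 ± 0.31, adjusted p = 0.0409). Its vehicle libraries had 45.7, 79.9 and 76.1 CPM and its TCM libraries 67.7, 146 and 153 CPM, so that replicate 1 of TCM lay below 2 vehicle libraries. Ndufb2, Ndufb11 and Ndufa7 lost their calls without vehicle replicate 1 (0.64, 0.61 and 0.76 on the log2 scale), TCM replicate 2 (0.72, 0.74 and 0.88) or TCM replicate 3 (0.67, 0.59 and 0.78). Without vehicle replicate 3 Ndufb2 (0.96) and Ndufb11 (0.87) lost them too, and without TCM replicate 2 so did Ndufs4 (0.64) and Ndufa2 (0.90). With library totals alone Ndufb2 did not pass (0.61, adjusted p = 0.0603), and with the length trend removed Ndufb11 did not (0.17, adjusted p = 0.379).

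Summed over genes, the core and accessory subunits moved by different amounts. The 7 core genes had 402, 434 and 452 CPM in count-table vehicle and 499, 637 and 659 CPM in count-table TCM, a 1.39-fold difference of the means. Ndufv2 supplies 229, 348 and 368 of the latter. The 28 tested accessory genes had 1750, 2500 and 2454 CPM against 2892, 5106 and 5658 CPM, a 2.04-fold difference. The ratio of the accessory to the core sum was 5.18 ± 0.735 in count-table vehicle and 7.46 ± 1.47 in count-table TCM (SD, n = 3). Its values, 4.36, 5.76 and 5.43 against 5.80, 8.01 and 8.58, did not overlap, although replicate 1 of TCM exceeded replicate 2 of vehicle by little. All 45 genes together took 0.290%, 0.346% and 0.342% of the counts in count-table vehicle and 0.423%, 0.565% and 0.604% in count-table TCM.

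**Figure D3:**
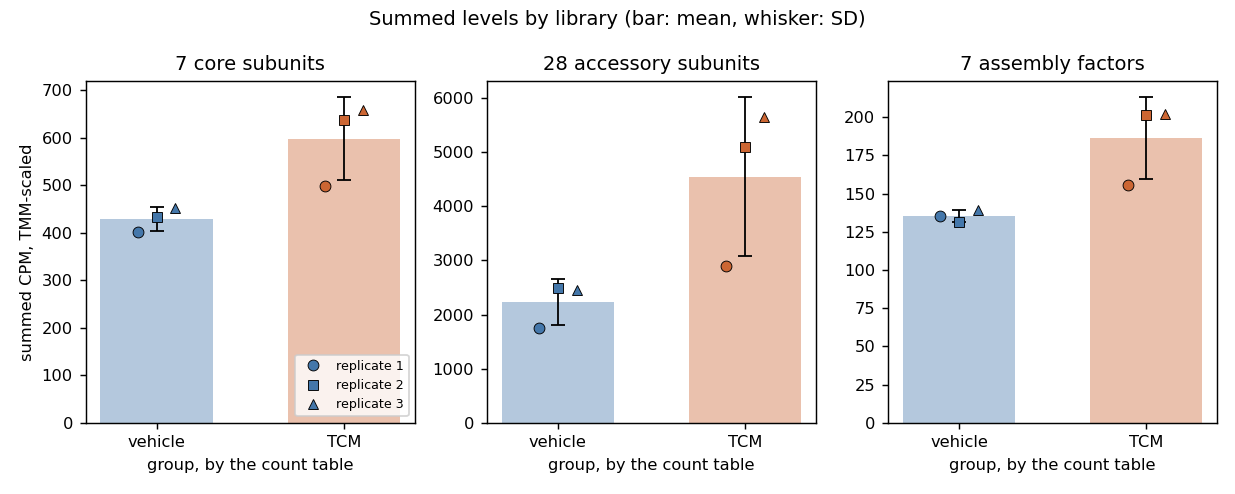
Summed CPM of core subunits, accessory subunits and assembly factors (vertical axes from 0); bars are means of 3 libraries, whiskers SD, and symbols the replicates. Every TCM library lies above every vehicle library in the 3 panels, with replicate 1 the lowest of the TCM libraries.

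Per kilobase of exon, the 35 tested subunits differed widely in level. In count-table vehicle the lowest mean was 2.69 CPM per kb (Ndufab1) and the highest 276 CPM per kb (Ndufa7), and in count-table TCM the ends were 6.48 (Ndufab1) and 706 (Ndufc2). The median core subunit had 31.6, 32.0 and 31.8 CPM per kb in the vehicle libraries and 34.1, 30.3 and 35.0 in the TCM libraries. That of the accessory subunits had 61.3, 81.9 and 76.2 CPM per kb against 103, 170 and 186. The SD of log2 CPM per kb across subunits was 1.39 to 1.48 in count-table vehicle and 1.52 to 1.76 in count-table TCM, so levels of the subunits lay further apart in each TCM library. Union exon length is long for Ndufab1 (4387 bases) and Ndufb2 (4375 bases), which lowers their level per kilobase and raises their change when the length trend is removed. Across the 43 genes the log2 change and the mean log2 CPM had a Spearman correlation of 0.56, a description over genes of the same libraries. A mean that includes the TCM libraries is itself raised by a rise, so these measures are not independent.

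**Figure D4:**
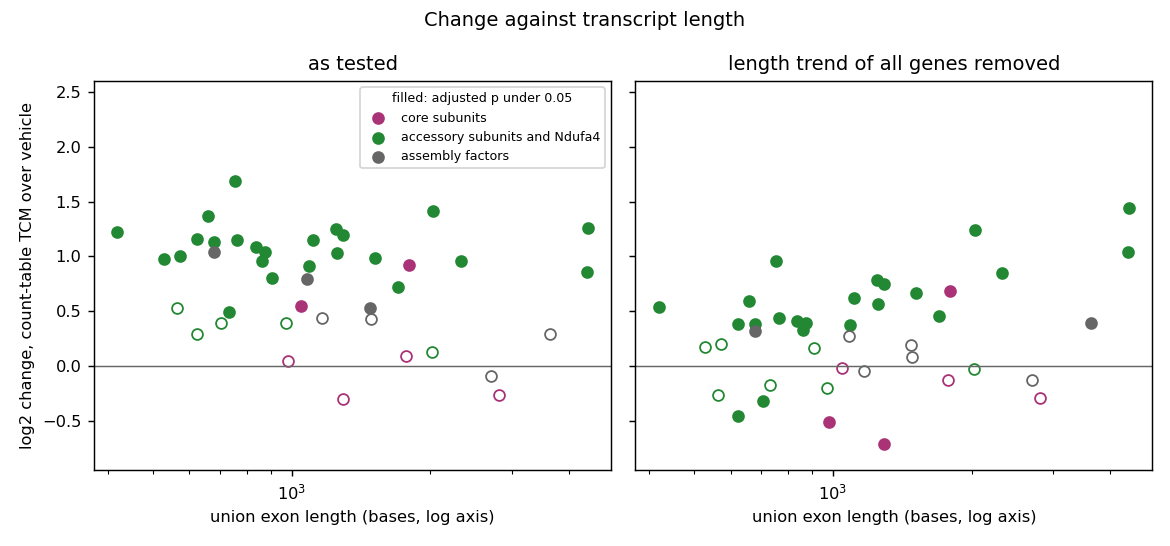
Log2 change (vertical axis) against union exon length (log axis) for 42 of the 43 tested genes, as tested on the left and with the length trend of all genes removed on the right; filled points have an adjusted p under 0.05. Removing the trend lowers the median of the 43 from 0.91 to 0.33, and 2 core and 2 accessory subunits then lie below 0 as filled points.

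Among the 7 assembly factors 3 rose, 0 fell and 4 did not pass, with a median log2 change of 0.44. The shares of all genes that rose and fell were 28.8% and 30.0%. Ndufaf2, which attaches late in assembly where the NADH-oxidizing module docks, had 12.7, 16.5 and 16.2 CPM in count-table vehicle and 23.4, 35.2 and 34.7 CPM in count-table TCM. It rose 2.06-fold without overlap (log2 change 1.04 ± 0.18, adjusted p = 0.00123). Ndufaf6 had 6.31, 6.17 and 6.01 CPM against 9.21, 11.6 and 11.4 CPM (1.74-fold, adjusted p = 0.00104). Ndufaf1, part of the assembly complex of the membrane arm, had 20.5, 17.9 and 19.3 CPM against 25.4, 29.0 and 28.9 CPM (1.44-fold, adjusted p = 0.00385). Neither Ndufaf6 nor Ndufaf1 passed once the length trend was taken out (0.27, adjusted p = 0.11, and 0.19, adjusted p = 0.183), and with library totals alone Ndufaf1 did not (0.30, adjusted p = 0.171).

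Ndufaf3 and Ndufaf4 act together on the quinone module. Ndufaf3 had 12.3, 14.4 and 15.4 CPM against 13.4, 21.1 and 22.2 CPM (0.43 ± 0.19, adjusted p = 0.0835). For Ndufaf4 the values were 63.1, 63.0 and 65.1 CPM against 64.5, 84.3 and 85.5 CPM (0.29 ± 0.14, adjusted p = 0.0953). In both, replicate 1 of count-table TCM lay among the vehicle libraries while replicates 2 and 3 lay above them. Ndufaf5, which hydroxylates an arginine of Ndufs7, was the gene just outside the threshold (adjusted p = 0.0543), at 11.1, 6.85 and 8.61 CPM against 12.0, 12.2 and 11.6 CPM. Its groups did not overlap, and its log2 change of 0.44 ± 0.17 passed with RLE size factors (0.47, adjusted p = 0.0355), with DESeq2 (0.46, adjusted p = 0.0472), without the low-count filter (0.43, adjusted p = 0.0487) and without vehicle replicate 1 (0.62, adjusted p = 0.0081). Ndufaf7, an arginine methyltransferase of the early assembly steps, had 9.26, 6.81 and 8.45 CPM against 7.34, 8.25 and 7.47 CPM (-0.09 ± 0.15, adjusted p = 0.633). With the replicate block Ndufaf3 (0.41, adjusted p = 0.000607), Ndufaf4 (0.28, 0.0106) and Ndufaf5 (0.45, 0.000774) passed as higher. Ndufaf3 (0.63, adjusted p = 0.00249) and Ndufaf4 (0.42, 0.00737) also did without TCM replicate 1. Ndufaf4 passed as higher with transcript length corrected for too (0.39, adjusted p = 0.0365), the 1 gene of the 43 to gain such a call there.

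Ndufa4 was the most abundant of the 45 genes per kilobase, at 380 CPM per kb in count-table vehicle and 847 in count-table TCM. Its libraries had 173, 270 and 268 CPM against 319, 596 and 671 CPM, without overlap, and it rose 2.23-fold (log2 change 1.16 ± 0.29, adjusted p = 0.00805). Ndufa4l2, known as a hypoxia-induced gene that dampens complex I, had 13, 12 and 17 counts in count-table vehicle and 0, 2 and 4 counts in count-table TCM. It did not pass the filter on low counts. Without that filter its log2 change was -2.24, and in the 7 settings that tested it the change ran from -3.13 to -1.59. Where a setting kept the filter, the gene could pass only through the vehicle libraries, in which its counts were higher. These values are therefore a description and not a test. Its exons share 32 bases with those of Shmt2 on the opposite strand, which had 1087 ± 130 against 496 ± 41.9 CPM and fell 2.19-fold (adjusted p = 0.000547). Without a stated strand setting reads of the 2 genes cannot be told apart there. Ndufs5, an accessory subunit, was listed at 0 counts in all 6 libraries, which allows at most 0.0237 CPM over the 6 libraries at a limit of 3 counts. How reads with several matching places were counted is not given in the sources used here.

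In the GENCODE M21 models 14 of the 45 genes overlap the span of another gene of the table, all on the opposite strand, and 10 of them share exon bases with it. The 30 tested genes without such an overlap gave 20 that rose and 0 that fell, beside 28.8% and 30.0% of all genes. On GRCm38, also called mm10, Ndufc2 lies on chromosome 7 (97400003 to 97407802, 3 exons), Ndufv3 on chromosome 17 (31520115 to 31531331, 4 exons) and Ndufv2 on chromosome 17 (66078638 to 66101559, 8 exons). Ndufs8 and Ndufv1 lie near each other on chromosome 19 (3908863 to 3912774, 7 exons, and 4007384 to 4012806, 10 exons), and Ndufs1 on chromosome 1 (63143596 to 63176833, 19 exons). All 6 are protein-coding.

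Assembly factors with other names moved in both directions. Of 11 listed, 8 were tested, and 4 rose, 1 fell and 3 did not pass (median log2 change 0.36). All genes also moved both ways, with 28.8% higher and 30.0% lower. Tmem70, which serves complex I and ATP synthase, had 49.8 ± 2.55 CPM in count-table vehicle and 161 ± 28.1 CPM in count-table TCM (SD, n = 3) and rose 3.23-fold (adjusted p = 3.65e-05). Nubpl, which delivers iron-sulfur clusters to complex I, rose 2.50-fold (adjusted p = 0.000325). Foxred1, an oxidoreductase of complex I assembly, had 19.8 ± 2.02 against 11.9 ± 0.267 CPM and fell 1.67-fold (adjusted p = 0.00082).

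Of 39 nuclear genes of complexes II to V, 32 rose and 0 fell, with a median log2 change of 0.85, beside the 28.8% and 30.0% of all genes. With the length trend removed 16 were higher and 1 lower (median 0.32). Sdhd, a membrane anchor of complex II, rose 3.08-fold, and Atp5c1 and Atp5f1 of ATP synthase rose 2.25-fold and 2.20-fold. Of 15 tested regulators of mitochondrial genes 3 rose and 6 fell (median -0.33), shares not far from those of all genes. The 3 that rose were named after their values were seen. They were Esrra, an estrogen-related receptor (log2 change 0.84), Tefm, a mitochondrial elongation factor (0.81), and Gabpb1, a subunit of GABP (0.36). Gabpb2, another subunit of GABP, fell 1.98-fold (adjusted p = 0.000214). The coactivator genes Ppargc1b and Pprc1 fell 1.58-fold and 1.55-fold (adjusted p = 0.00325 and 0.00404). Other factors whose motifs were searched were also named after their values were seen. Gabpa, the ETS subunit of GABP, fell (log2 change -0.50, adjusted p = 0.0197). Nrf1 (-0.23, adjusted p = 0.138) and Yy1 (0.06, adjusted p = 0.683) did not pass. Beside 28.8% and 30.0% of all genes, 2 rose and 2 fell among 10 enzymes that also pass electrons from NADH, NADPH or other donors. They include Etfdh, which feeds electrons of fatty acid oxidation to ubiquinone and rose 1.80-fold, Nqo1, a cytosolic quinone reductase, which rose 1.88-fold, and Sqrdl, which oxidizes sulfide and fell 2.06-fold.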

How the data were processed

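RNA sequencing counts of 6 libraries were used. Per the file headers, 1 deposited table gives exon counts, 1 column per library, with whole numbers under each symbol. In the second table deposited by the authors the signal of a gene equals its count over a library's own constant. The submitters' processing notes name STAR 2.7.2d, DESeq2 1.28.1 and mm10; no source used here gives the counting tool, annotation or strandedness. The 92 spike-in rows held 0 counts and were left out. Whole reads were recovered for 100% of values above 0 in the normalized table (tolerance 0.1 reads); edgeR on them, grouped by that table's header, called 3726 genes higher and 3584 lower.

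Genes passing filterByExpr were scaled with TMM and tested with edgeR 4.0.16 (quasi-likelihood test, R 4.3.3) with the group as sole term, Benjamini-Hochberg adjustment and a threshold of 0.05. The SE is the log2 change divided by the square root of F. Same-numbered libraries deviated together (correlations 0.146 to 0.60 over genes). The replicate numbers, from the titles, therefore paired the samples in the replicate block and in the same-numbered ratios. The reported test did not use this pairing. Vehicle replicate 2 correlated better with TCM replicate 3 (0.424) than with TCM replicate 2 (0.146), so beyond replicate 1 the pairing rests on little. On simulated counts with 2-fold changes in 200 genes, 95.5% were recovered over 12311 genes, with 4.5% false calls. In the data 58.8% of genes were called, so this rate does not give the power of the reported test here. Lengths are union exons of GENCODE M21; the length alternative subtracts a lowess trend (span 0.3) per library. Alternatives were RLE size factors, library totals, DESeq2 1.42.0, no filter, a replicate block, length removal, and leaving libraries out. Counts and sums cover all genes of the rule, of which 1 is not reported here by itself. Named genes are the other core subunits, every assembly factor, Ndufa4, Ndufa4l2, Ndufab1, the 6 highest and 6 lowest other accessory subunits, the genes nearest to the threshold, and the 3 smallest p-values per pathway list. Members, lists and tests were chosen with earlier results of these data known. Floors and limits cover counting error only.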

Additional observations from a re-analysis of the deposited data

How the results depend on the processing

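The number of complex I genes called higher was 23 to 36 over the 14 settings that follow the count table's header. Calls of higher over all genes ran from 2364 to 4566 in these settings. In every one of them 20 complex I genes were called higher, and the matching share of all genes is not given here. With the header of the normalized table, a setting chosen after seeing the data, 0 were higher and 29 lower, and their median log2 change was -0.91. The count of genes called lower, 0 in the reported test, was 1 with DESeq2 and 1 without the low-count filter (Ndufa4l2 in each), 2 with the replicate block, 3 without both replicate 1 libraries, 4 with the length trend removed and 6 with the length trend removed together with the replicate block, and ran from 0 to 2 when 1 library was left out. The replicate block gave 36 genes called higher (29 without it) and changed no call other than the 9 given above; with the length trend removed as well, 23 were higher. The median of 0.91 became 0.33 with the length trend removed and 0.33 with the replicate block added to that, and ran from 0.78 to 1.09 when 1 library was left out. With library totals alone 2364 of all genes were called higher and 3965 lower; 37.4% of calls were then higher, and the median of all genes moved from -0.02 to -0.23.

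Reversed directions included those of Ndufs3 and Ndufb10, called higher in the reported test. With library totals alone the log2 change was -0.17 for Ndufs7, -0.12 for Ndufv1 and -0.076 for Ndufa10. With the length trend removed, without and with the replicate block, it was -0.51 and -0.52 for Ndufs7, -0.13 and -0.14 for Ndufv1, -0.029 and -0.023 for Ndufa10, -0.45 and -0.46 for Ndufb7, -0.32 and -0.32 for Ndufb9, -0.20 and -0.19 for Ndufb4, -0.044 and -0.028 for Ndufaf5, -0.17 and -0.19 for Ndufb10, -0.27 and -0.26 for Ndufa3, and -0.016 and -0.0081 for Ndufs3. Without both replicate 1 libraries Ndufaf7 had 0.030. Leaving out 1 library at a time, the change ran from -0.20 to 0.0051 for Ndufaf7, from -0.0019 to 0.093 for Ndufs7 and from -0.013 to 0.25 for Ndufa10. The cause was not tested. Few counts limit what can be said of Ndufa4l2; why Ndufs5 had 0 counts was not tested.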
